A study of Mus musculus with 4 samples.

Results

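Integrins are cell surface receptors made of 1 α and 1 β subunit that bind extracellular matrix and link it to the actin cytoskeleton. Laminins are heterotrimers of an α, a β and a γ chain that polymerize into the basement membrane, where nidogens and the heparan sulfate proteoglycans perlecan and agrin join them to the collagen IV network. Fibroblasts attach mainly to fibronectin and collagens, whereas epithelial cells sit on laminins, which they bind through their own integrin pairs.

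The genes described here were chosen by name among the 55397 genes of the deposited table. Integrin α and β subunits were those named Itga or Itgb plus a number or a single letter. Names with a number and a letter, such as Itga2b, were outside the rule. The laminin α, β and γ chains (Lama, Lamb or Lamc plus a digit), Nid1, Nid2, Hspg2 (perlecan) and Agrn (agrin) were taken too. The rule gave 40 genes, namely 17 integrin α and 8 integrin β subunits, 11 laminin chains and 4 nidogens and proteoglycans. The 35 genes that averaged 10 normalized counts or more over all libraries were tested. The rule used gene names and no measured values, but it was set with earlier results of these data known. The data are bulk RNA-seq of primary mouse embryonic fibroblasts (MEFs) from E13.5 embryos of C57BL/6J mice with floxed Prox1 alleles (Prox1 fl/fl), with 2 KO-labelled libraries (label Prox1 KO, replicates 1 and 2) and 2 control libraries (replicates 1 and 2). All cells were plated on collagen and received lentivirus carrying the 4in1 hepatocyte reprogramming factors together with cre-GFP (Cre recombinase, Prox1 KO) or dcre-GFP (an inactive form, control), and were collected at day 14 in hepatocyte culture medium. Each primary line comes from the limbs of several embryos, and the study's methods name the line as a covariate. Libraries were compared within replicate number on the assumption, not stated in the labels, that a number stands for a line. Reprogramming converts only a part of the cells, and in RNA from a whole culture, fewer cells of a type and less RNA per cell cannot be told apart.

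Each library held between 42469031 and 48524008 reads on genes. The genotype label was checked with Prox1 itself, which held 72.7 and 61.6 normalized counts in the KO-labelled libraries and 60.6 and 25.5 in the controls, from 24 to 70 reads. Prox1 was therefore not lower under the label Prox1 KO (log2 difference 0.75 ± 0.27, SE, 2 pairs, limma adjusted p = 0.0936), although counts over the whole gene do not separate reads of a deleted part. Here and below, each SE is limma's moderated SE, which borrows from the variance of all genes tested. It is not the spread of a gene's own 2 pairs and can be much smaller than that spread. The direction of every difference below rests on the labels. All 10 fibroblast markers counted, among them Col1a1, Col1a2 and Thy1, averaged 10 normalized counts or more, with a summed level from 708593 to 898509 normalized counts in the KO-labelled libraries and from 788553 to 977606 in the controls.

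To compare the abundance of different members, normalized counts were divided by exonic length in kilobases. This length joins all annotated exons of a gene, so a gene with many annotated transcripts can rank too low. The ranks and shares below are approximate for that reason. Itgb1, the β subunit shared by most matrix-binding integrins, had the highest mean level with 22060.1 normalized counts per kilobase, followed by Nid1 with 11598, Lamb2 with 7616, Hspg2 with 7449, Agrn with 6357 and Itga5 with 5838. Among integrin β subunits, Itgb1 made up 79.5% of the per-kilobase level on average and Itgb5, a partner of αv, 19.3%, so that the other 6 subunits tested shared the small rest. Among the integrin α subunits, Itga5, which forms the main fibronectin receptor with β1, made up 58.3% and 59.1% in the KO-labelled libraries and 55.3% and 55.4% in the controls. Itga8, Itgav and Itga3 followed with mean shares of 9.65%, 8.95% and 8.07%.

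The laminin chains were as uneven. Lamc1 made up 96.6% of the γ chain level, Lamb2 and Lamb1 73.3% and 26.4% of the β chain level, and Lama5, Lama2 and Lama4 44.2%, 28.8% and 25.9% of the α chain level. Lama3 and Lamb3, chains typical of epithelial laminin, were low, with 22.7 and 30.4 normalized counts per kilobase. The α chain of early embryonic basement membranes, Lama1, was as low as Lama3 with 21.3. At the bottom were the leukocyte integrins. Itgad, Itgae, Itgal, Itgam and Itgax held between 0 and 11 reads in any library and were not tested, and Itgb2, the β subunit of most of them, held 13 to 31 reads.

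**Figure D1:**
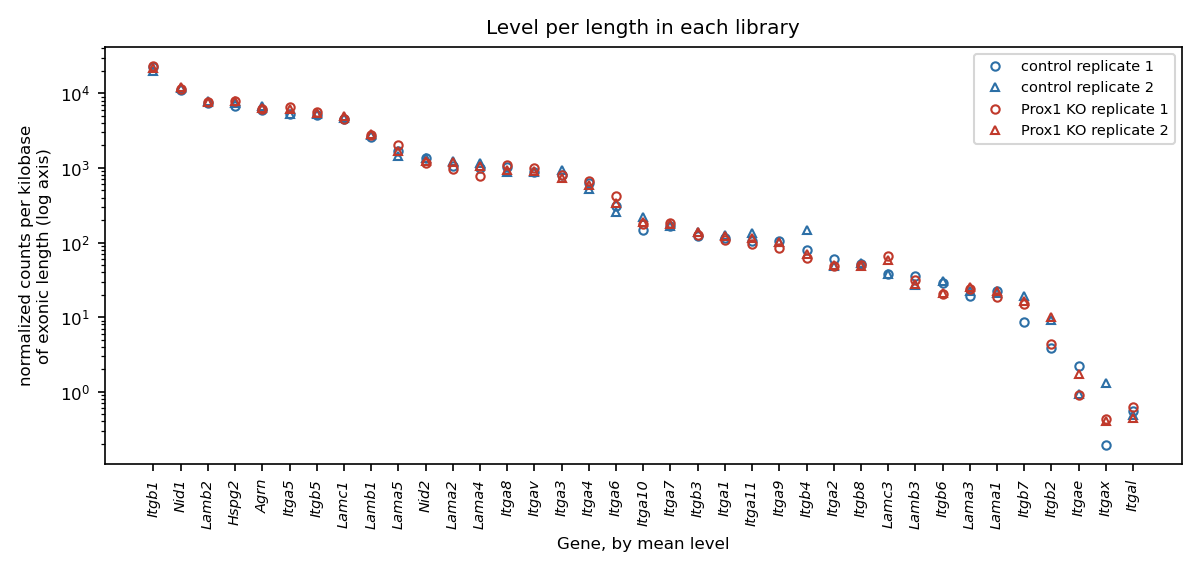
Normalized counts per kilobase of exonic length (log axis) for integrin, laminin, nidogen, perlecan and agrin genes with reads in every library, in order of mean level, with 1 symbol per library (blue control, red Prox1 KO, circles replicate 1, triangles replicate 2). Itgad and Itgam, at 0 reads in at least 1 library, are left out. Levels span from 22060.1 for Itgb1 to under 1 for Itgal, and the 4 libraries lie close together for most genes.

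In the comparison of KO-labelled libraries with controls, 9 of the 35 genes tested passed an adjusted p-value of 0.05 (limma on log2(normalized counts + 1) with the replicate number as a block), or 25.7%, whereas 11.4% of all 15809 genes tested did. Calls were more frequent among abundant genes in general: 16.0% of all genes that averaged 1000 normalized counts or more were called, and 6 of the 20 members at that level (30%). Itga4, Itga5, Itga6, Lama5 and Lamc3 were higher (5 of 35, against 5.09% of all genes called higher) and Itgb4, Itgb6, Lama4 and Nid2 were lower (4 of 35, against 6.29% called lower). The differences were small, between 0.13 and 0.69 on the log2 scale in size, and the median of the 35 genes was 0.0135, near the median of all genes (-0.0022). Most calls were lost when the pairing of libraries was left out. Without the replicate block, limma called 0 of the 35 genes and 0 of all genes (6 and 1783 at an unadjusted p under 0.05), whereas DESeq2 without it still called Itga5 and Lamc3 (adjusted p = 0.0338 and 0.0306) and 159 genes in all. DESeq2 with the block called 4, Itga5, Itga6, Lama5 and Lamc3, where it called 3.00% of all genes. In 14 of the 35 genes (40%) the groups did not overlap, against 44.4% of all genes.

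**Figure D2:**
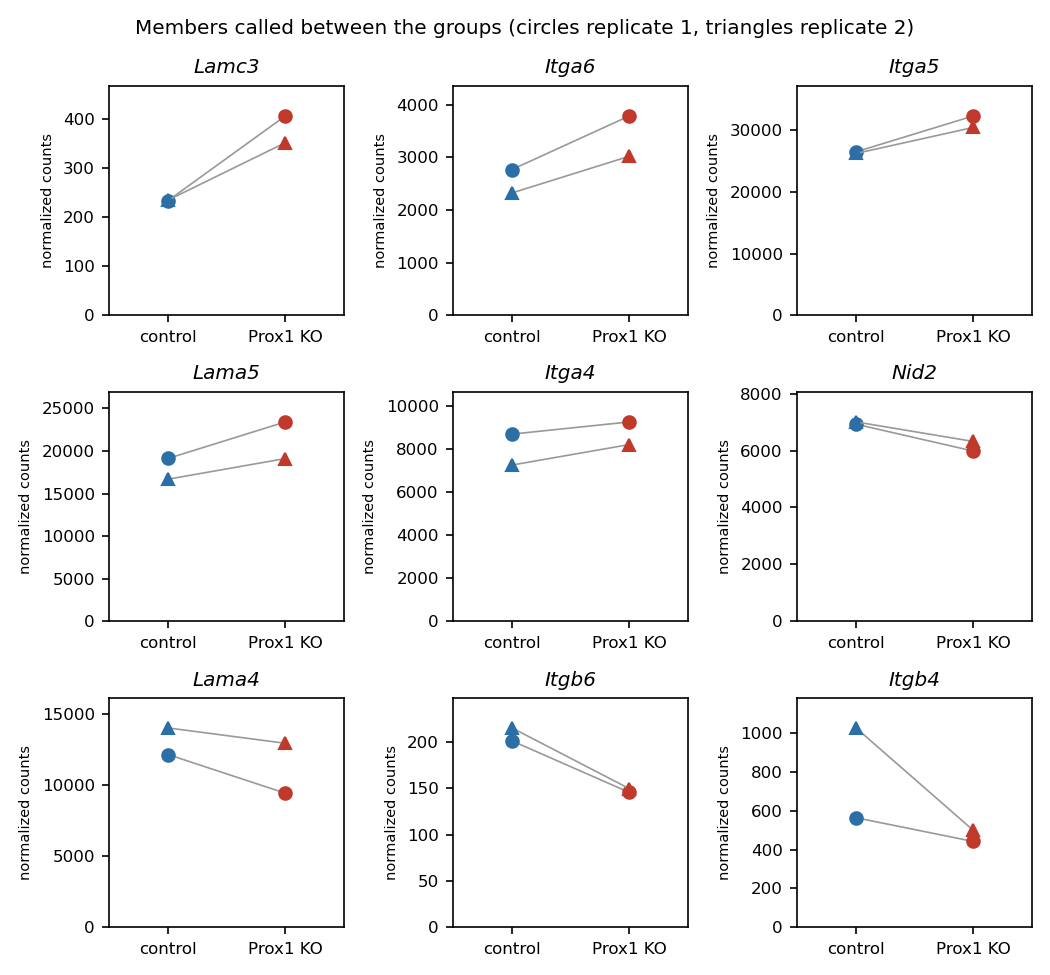
Normalized counts (linear axes from 0) of the 9 called genes in each library, with lines joining the control (blue) and Prox1 KO (red) library of the same replicate number (circles replicate 1, triangles replicate 2). In every panel both lines run the same way, and in Itga4, Lama5 and Lama4 the 2 groups overlap.

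Among the laminin-binding integrin subunits (Itga3, Itga6, Itga7 and Itgb4), 1 rose and 1 fell. Itga6 (ENSMUSG00000027111, chr2:71745616-71858416, plus strand), the α subunit that pairs with β1 or β4, held 3787 and 3021 normalized counts in the KO-labelled libraries and 2769.6 and 2325 in the controls. Both KO-labelled libraries were above both controls, and replicate 1 was the higher library of each group. Itga6 rose by 0.41 ± 0.047 on the log2 scale (SE, 2 pairs, limma adjusted p = 3.63e-05), with 0.45 and 0.38 in pairs 1 and 2. Itgb4 (ENSMUSG00000020758, chr11:115974709-116008412, plus strand), the β subunit of hemidesmosomes, which pairs only with α6, moved the other way. Its levels were 442 and 499 normalized counts in the KO-labelled libraries and 564 and 1025 in the controls, and control replicate 2 stood well above the other 3 libraries. Itgb4 fell by 0.69 ± 0.12 (limma adjusted p = 0.00125), the largest fall among the 35 genes, with log2 differences of -0.35 and -1.04 in pairs 1 and 2. DESeq2 with the block gave Itgb4 an adjusted p of 0.398. Per kilobase, the mean level of Itga6 was 329.7 and that of Itgb4 90.1, against 22060.1 for Itgb1.

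The other 2 laminin-binding subunits were not called. Itga3, the receptor subunit for the laminins of epithelial basement membranes, held 4527 and 4242 normalized counts in the KO-labelled libraries and 4584 and 5349 in the controls, a log2 difference of -0.18 (95% interval -0.30 to -0.05, limma adjusted p = 0.0675). The groups did not overlap, but nearly all of the difference was in pair 2 (-0.33, against -0.02 in pair 1). Itga7, best known from muscle, held 1484 and 1454 normalized counts in the KO-labelled libraries against 1360.5 and 1340.2 in the controls, a difference of 0.12 (limma adjusted p = 0.208).

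Of the fibronectin- and RGD-binding subunits, 1 of 7 rose and 1 of 7 fell. Itga5 (ENSMUSG00000000555, chr15:103344286-103366763, minus strand), the most abundant α subunit, held 32229.5 and 30372 normalized counts in the KO-labelled libraries and 26425 and 26163 in the controls. The controls lay close together and both KO-labelled libraries were above them. Itga5 rose by 0.25 ± 0.04 on the log2 scale (SE, 2 pairs, limma adjusted p = 0.000788), in pairs 1 and 2 by 0.29 and 0.22, and was called in 10 of the 11 settings tried. Its partner Itgb1 held 94860.5 and 89707 normalized counts against 93319 and 82223 in the controls, and its difference of 0.07 (95% interval -0.02 to 0.17) did not pass (limma adjusted p = 0.357). Itgb6 (ENSMUSG00000026971, chr2:60598292-60722643, minus strand), an epithelial partner of αv that activates latent TGFβ, was among the least abundant members, with 145 and 149.6 normalized counts in the KO-labelled libraries and 201 and 215 in the controls. Both controls were above both KO-labelled libraries. It fell by 0.49 ± 0.14 (limma adjusted p = 0.0331), by similar amounts in both pairs (-0.46 and -0.52), and DESeq2 with the block gave an adjusted p of 0.588.

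The αv subunit itself and its other partners were not called. Itgav held 10739 and 9624 normalized counts in the KO-labelled libraries and 9425 and 9479 in the controls, a log2 difference of 0.11 (limma adjusted p = 0.16) that came mostly from pair 1. Itgb5 held 19698 and 19308 against 17966 and 18943 in the controls (difference 0.08, limma adjusted p = 0.254). Itga8, a receptor subunit for nephronectin and fibronectin that is typical of mesenchyme, held 8129.6 and 6959.7 against 7514 and 6477 in the controls, with 0.11 and 0.10 in pairs 1 and 2 and a limma adjusted p of 0.101. For these 3 genes the 95% intervals, which are not adjusted for the number of genes, ran from 0.01 to 0.20, from -0.01 to 0.17 and from 0.02 to 0.19. Those of Itgav and Itga8 thus lay above 0. All 3 rest on the moderated SE and do not measure the spread of the 2 pairs, so they set no firm bound on larger rises. The log2 differences of Itgb3 and Itgb8, the β subunits of the vitronectin receptor and of another activator of latent TGFβ, were 0.01 and -0.07.

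Itga4 (ENSMUSG00000027009, chr2:79255426-79333123, plus strand), whose product binds VCAM1 and fibronectin, held 9257 and 8207 normalized counts in the KO-labelled libraries and 8692 and 7256 in the controls. Replicate 1 was higher than replicate 2 in both groups and the groups overlapped, and the difference showed only within the pairs (0.09 and 0.18). Itga4 rose by 0.13 ± 0.041 on the log2 scale (SE, 2 pairs, limma adjusted p = 0.0469), the smallest called difference among the 35 genes, and it passed in 4 of the 11 settings tried. Its relative Itga9, which binds tenascin and osteopontin, had a log2 difference of -0.17. Of the 4 collagen-binding α subunits, limma called 0 (0 at an unadjusted p under 0.05), as did edgeR and DESeq2 with the block. Of all genes, limma called 11.4% and DESeq2 with the block 3.00%, and 4 genes are too few to tell 0 from these shares. Itga1 held 1988 and 2261 normalized counts in the KO-labelled libraries and 2171 and 2372 in the controls, a difference of -0.10 (95% interval -0.20 to 0.01, limma adjusted p = 0.254). The log2 differences of Itga2, Itga10 and Itga11 were -0.13, 0.01 and -0.17, and those of Itga10 pointed in opposite directions in the pairs (0.27 and -0.25). Exons of a same-strand gene model, Gm42957, cover 33.5% of the exonic length of Itga10, so its reads may be divided between them. The leukocyte subunits Itgb2 and Itgb7 had differences of 0.15 and 0.28, with intervals from -0.62 to 0.92 and from -0.35 to 0.91.

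**Figure D3:**
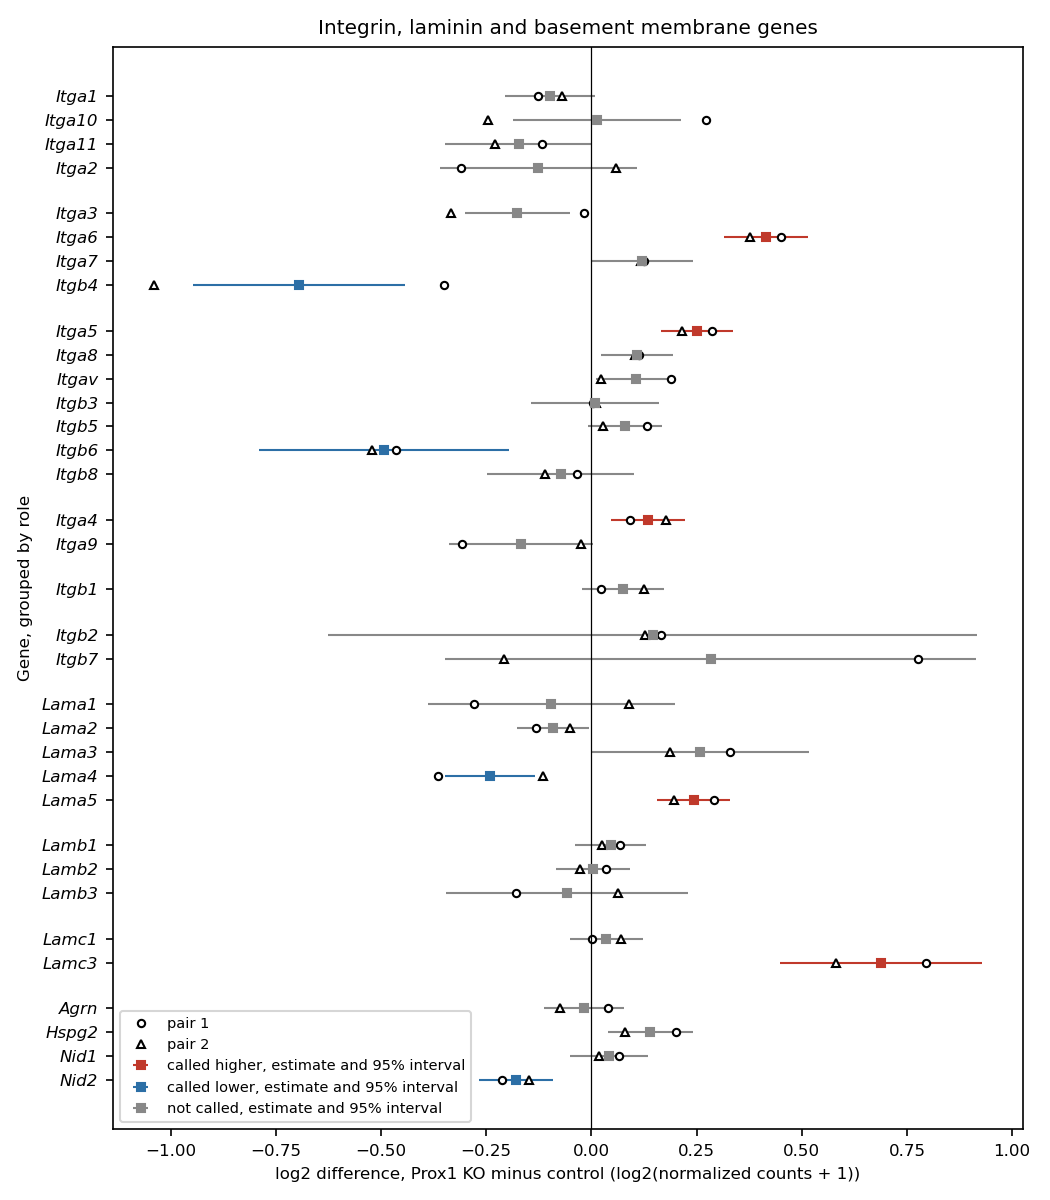
Log2 difference between Prox1 KO and control libraries (log2(normalized counts + 1), horizontal axis) for 34 of the 35 genes tested, grouped by role. Squares and bars give the limma estimate and its 95% interval (red called higher, blue called lower, gray not called), and open circles and triangles the differences in pairs 1 and 2. The interval of each called gene lies on 1 side of 0, as a call requires. Those of some uncalled genes, such as Itga3 and Hspg2, do too. The 14 uncalled genes with a mean of at least 1000 lie between -0.18 and 0.14, and Itgb4 shows the widest gap between its pairs among the called genes.

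Of the 5 laminin α chains, 1 rose and 1 fell. Lama5 (ENSMUSG00000015647, chr2:180176373-180225859, minus strand), the α chain of most adult basement membranes, held 23403 and 19104 normalized counts in the KO-labelled libraries and 19118 and 16686 in the controls. Replicate 1 was the higher library in each group and Prox1 KO replicate 2 lay just under control replicate 1, so the groups overlapped by a small margin. Lama5 rose by 0.24 ± 0.041 on the log2 scale (SE, 2 pairs, limma adjusted p = 0.00106), with 0.29 and 0.20 in pairs 1 and 2. Lama4 (ENSMUSG00000019846, chr10:38965515-39110188, plus strand), the α chain of mesenchymal and vascular laminins, held 9450.4 and 12966 normalized counts in the KO-labelled libraries and 12175 and 14048 in the controls. Prox1 KO replicate 1 was below the other 3 libraries, and Prox1 KO replicate 2 lay between the controls. Lama4 fell by 0.24 ± 0.05 (limma adjusted p = 0.00543), by 0.37 in pair 1 and 0.12 in pair 2, and DESeq2 with the block gave an adjusted p of 0.471. Lama2, the α chain of muscle and nerve laminins, was not called, with 15946 and 19571 normalized counts in the KO-labelled libraries and 17483 and 20264 in the controls (difference -0.09, 95% interval -0.18 to -0.01, limma adjusted p = 0.176).

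Seen as a share of the α chain level per kilobase, Lama5 made up 53.3% and 42.0% in Prox1 KO replicates 1 and 2 and 44.2% and 37.4% in control replicates 1 and 2, and Lama4 made up 20.3% and 26.9% against 26.6% and 29.7%. Within each replicate number the Lama5 share was larger and the Lama4 share smaller in the KO-labelled library, while the shares of Prox1 KO replicate 2 and control replicate 1 were close. The summed α chain level itself was 3857 and 3998 normalized counts per kilobase in the KO-labelled libraries and 3799 and 3913 in the controls.

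The abundant β chains and the main γ chain were not called. Their intervals rest on the moderated SE and do not measure the spread of the 2 pairs. Lamb1 held 27066 and 28255 normalized counts in the KO-labelled libraries and 25821 and 27769.5 in the controls (log2 difference 0.05, 95% interval -0.04 to 0.13). Lamb2 held 45864 and 46881 against 44738 and 47790.5 in the controls (difference 0.004, interval -0.08 to 0.09), and Lamc1 37307 and 41055 against 37267 and 39129 (difference 0.04, interval -0.05 to 0.12). Their limma adjusted p-values were 0.526, 0.969 and 0.661, and the sign of the Lamb2 difference turned under quantile normalization (-0.049). By contrast Lamc3 (ENSMUSG00000026840, chr2:31887291-31946539, plus strand), a minor γ chain, was the member with the largest rise. Lamc3 held 405 and 351 normalized counts in the KO-labelled libraries and 233 and 234 in the controls. The controls were nearly equal and both KO-labelled libraries were far above them. The rise was 0.69 ± 0.11 on the log2 scale (SE, 2 pairs, limma adjusted p = 0.000924), with 0.79 and 0.58 in pairs 1 and 2. It was called in 10 of the 11 settings tried, though only narrowly by DESeq2 with the block (adjusted p = 0.0498). Lamc3 still made up no more than 1.42% of the γ chain level per kilobase in any library, so the sum of γ chains changed little with it. Lama3 and Lamb3 were not called, with log2 differences of 0.26 and -0.06 and limma adjusted p-values of 0.21 and 0.845, and the difference of Lamb3 turned to 0.014 under quantile normalization.

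Among the linkers, Nid2 (ENSMUSG00000021806, chr14:19751265-19811787, plus strand), the less abundant nidogen, held 5981 and 6318 normalized counts in the KO-labelled libraries and 6925 and 7004 in the controls. Both KO-labelled libraries were below both controls. Nid2 fell by 0.18 ± 0.041 on the log2 scale (SE, 2 pairs, limma adjusted p = 0.00994), with log2 differences of -0.21 and -0.15 in pairs 1 and 2, and DESeq2 with the block gave an adjusted p of 0.116. Nid1 held 80111 and 83249 normalized counts in the KO-labelled libraries and 76528 and 82207 in the controls, a difference of 0.04 that did not pass (limma adjusted p = 0.618). Perlecan (Hspg2), the most counted member, held 111434 and 111968 normalized counts against 96926 and 105948 in the controls, without overlap of the groups. Its difference of 0.14 missed the threshold (limma adjusted p = 0.0729) and passed with edgeR (adjusted p = 0.0463). Agrin (Agrn) held 57322 and 59917 against 55802 and 63056 in the controls, a difference of -0.02 (95% interval -0.11 to 0.08). Exons on the opposite strand overlap 6.27% to 8.45% of the exonic length of Itga4, Itgb4, Lamc3 and Nid2, and the strand setting of the counting is not given in the sources used here.

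The sequence before the transcription start was examined for the called genes, because these genes moved in both directions and their promoters can be set side by side. RefSeq windows on GRCm38.p6 were at hand for 25 of the 40 members and for 4 of the 9 called genes, Itga4, Itga5 and Lama5, which rose, and Itgb6, which fell. Each is shown 5′ to 3′ on the gene's strand, up to 250 bases before its start, with GC boxes (GGGCGG on either strand, the letters bound by Sp1-type factors) in capitals.
Itga4 (250 bases, chr2:79255176-79255425, plus strand): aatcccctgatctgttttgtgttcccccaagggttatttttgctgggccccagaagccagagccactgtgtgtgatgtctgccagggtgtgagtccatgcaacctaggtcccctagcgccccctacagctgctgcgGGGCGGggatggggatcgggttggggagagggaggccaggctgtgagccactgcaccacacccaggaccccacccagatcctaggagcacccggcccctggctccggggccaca
Itga5 (250 bases, chr15:103366792-103367041, minus strand): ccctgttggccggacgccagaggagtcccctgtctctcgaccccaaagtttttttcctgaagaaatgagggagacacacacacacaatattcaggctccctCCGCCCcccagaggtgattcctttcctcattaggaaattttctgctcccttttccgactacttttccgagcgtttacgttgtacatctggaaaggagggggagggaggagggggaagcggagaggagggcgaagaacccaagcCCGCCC
Lama5 (250 bases, chr2:180225860-180226109, minus strand): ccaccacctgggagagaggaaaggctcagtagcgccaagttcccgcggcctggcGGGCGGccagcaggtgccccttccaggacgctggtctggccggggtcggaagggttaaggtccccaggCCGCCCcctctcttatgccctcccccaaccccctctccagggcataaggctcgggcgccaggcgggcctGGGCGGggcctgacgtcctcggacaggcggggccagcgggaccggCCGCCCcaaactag
Itgb6 (210 bases, chr2:60722644-60722853, minus strand): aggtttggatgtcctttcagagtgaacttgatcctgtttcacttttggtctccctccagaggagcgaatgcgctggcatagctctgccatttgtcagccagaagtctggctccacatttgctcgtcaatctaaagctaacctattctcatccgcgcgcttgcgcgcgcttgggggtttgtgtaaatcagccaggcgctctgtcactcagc
The stretch before Lama5 holds 4 GC boxes, that before Itga5 holds 2, the second of them directly at the start, and that before Itga4 holds 1. No match lies in the stretch before Itgb6. Of all 32851 RefSeq windows of 250 bases, 32.7% hold a GC box, and 13 of the 29 windows of the members do (44.8%). None of the 29 members' windows holds TATAAA on either strand, against 12.4% of all windows. These were 2 of 4 motifs counted on both strands. Of the others, CCAAT is in 5 of the 29 windows (17.2%, against 33.8% of all) and the AP-1 letters TGANTCA in 1 (3.45%, against 6.75%). A match is a description of the letters only.

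The replicates differed from each other by about as much as the groups. They also differed in Xist, at 14495 (Prox1 KO) and 13944 (control) normalized counts in replicate 1 and 4.89 and 1.06 in replicate 2. The part of what sets the replicates apart in Xist in the differences of the members was not tested. In the same fit, 9 of the 35 genes (25.7%) differed between replicates 2 and 1, where 7.88% of all genes did, and the median size of the replicate difference over the 35 genes was 0.132 on the log2 scale, against 0.126 for the difference between the groups (over all genes 0.0925 and 0.102). Itga10, Itga11, Itgb4, Lama2 and Lama4 were higher in replicate 2 and Itga4, Itga6, Itga8 and Lama5 lower. The largest of these was Itgb4 (0.52, limma adjusted p = 0.0124), and Lama4 differed by 0.33 (limma adjusted p = 0.000491). Of the 9 genes called between the groups, Itga4, Itga6, Itgb4, Lama4 and Lama5 were called between the replicates too, and Itga5, Itgb6, Lamc3 and Nid2 were not.

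**Figure D4:**
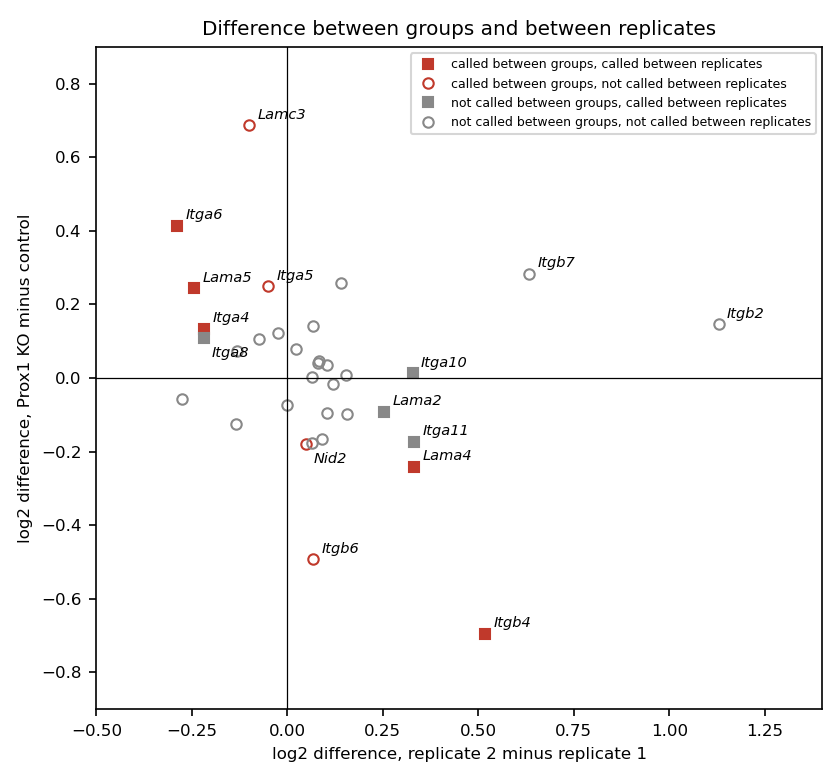
Log2 difference between replicates 2 and 1 (horizontal axis) against the log2 difference between Prox1 KO and control libraries (vertical axis) for 34 of the 35 genes tested. Red symbols were called between the groups and filled squares between the replicates. Itga6, Lama5 and Itga4 lie to the left and above 0, Lama4 and Itgb4 to the right and below 0, and Lamc3, Itga5, Nid2 and Itgb6 near the vertical line.

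The genes around the members in the pathway were counted in 5 lists. Of 27 other basement membrane components, 5 were higher and 3 lower (median log2 difference 0.095). Fbln1, a fibulin, fell by 0.44, with overlapping groups. The collagen IV chain Col4a5, the anchoring fibril collagen Col7a1 and the fibulin Fbln2 rose by 0.34, 0.34 and 0.30. Of 21 integrin adaptors and focal adhesion genes, 7 were higher and 1 lower. The adaptor Parvb, which joins the complex of integrin-linked kinase, rose by 0.43, with overlapping groups. Tln2 and Tns1, which bind integrin β tails, rose by 0.30 and 0.29. The single fall was Fermt1 (kindlin-1), the epithelial integrin activator, with 12.5 and 18.6 normalized counts in the KO-labelled libraries and 42.2 and 78.8 in the controls (limma adjusted p = 0.000959, DESeq2 with the block adjusted p = 0.0617).

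Of 17 integrin ligands, 2 were higher and 3 lower. Vcam1, the counter-receptor of α4 integrins, fell by 0.37, Postn (periostin) by 0.35 and the elastic fiber protein Emilin1 by 0.20. Ccn2, a matricellular integrin ligand, rose by 0.23. DESeq2 with the block gave Vcam1 and Postn adjusted p-values of 0.258 and 0.441. Their log2 differences were -0.53 and -0.52 in pair 1 and -0.21 and -0.17 in pair 2. A further list held 15 genes of basement membrane receptors other than integrins and of the proteins in complex with them. Of these, 2 were higher, Dmd (dystrophin, 0.30) and Utrn (utrophin, 0.15), which lie inside the cell and are not receptors themselves. Lower were 2, Bcam, a receptor for laminin α5 (-0.30), and Sgce, a sarcoglycan (-0.22). Of 7 integrin-associated tetraspanins and hemidesmosome genes, Plec (plectin), which links β4 to intermediate filaments, rose by 0.28, while the tetraspanins Cd82 and Cd63 fell by 0.17 and 0.17. DESeq2 with the block called 3 higher and 2 lower, 4 and 0, 2 and 1, 0 and 0, and 1 and 0 in these 5 lists, in the order given. Of all genes it called 3.00%. The median log2 differences of the last 4 lists were 0.076, 0.040, 0.015 and 0.025. By limma, the shares called were 29.6%, 38.1%, 29.4%, 26.7% and 42.9%, beside the 11.4% of all genes. Many genes of these lists are abundant, and of all genes that averaged 1000 normalized counts or more 16.0% were called. The limma adjusted p-values of the genes named from these lists lay between 1.09e-05 (Fbln1) and 0.0224 (Utrn), and the standard errors between 0.039 (Utrn) and 0.31 (Fermt1).

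Markers of other cell types were counted in the same way. Of all genes, limma called 11.4% (5.09% higher and 6.29% lower) and DESeq2 with the block 3.00%. Of 9 epithelial and biliary markers tested, 7 were lower (median log2 difference of the list -1.06), with a summed level from 9499 to 10293 normalized counts in the KO-labelled libraries and from 14559 to 19810.2 in the controls. Control replicate 2, the highest library for Itgb4 and Itgb6, was also the highest for this sum, and the part of these cells in the lower Itgb4 and Itgb6 was not tested. Of 9 hepatocyte markers, 7 were lower (median -0.72), with a summed level from 19639.7 to 21587 normalized counts in the KO-labelled libraries and from 25909 to 29439.7 in the controls. All 6 smooth muscle markers were higher, with a summed level from 88976 to 97236 normalized counts in the KO-labelled libraries and from 75465 to 77474 in the controls, and their part in the higher Itga5, Itga6, Lama5 and Lamc3 was not tested. Of 10 fibroblast markers, 2 were lower (Col3a1 and Pdgfra, by 0.43 and 0.48) and 8 were not called, with a median log2 difference of the list of -0.062. The part of fibroblasts in the lower Lama4 and Nid2 was not tested. DESeq2 with the block called 7 epithelial, 3 hepatocyte and 1 fibroblast marker lower and 4 smooth muscle markers higher, and gave Pdgfra an adjusted p of 0.309.

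The remaining lists had only 2 to 4 genes tested each, too few to set their counts against the 11.4% of all genes called by limma. Of 4 endothelial markers tested, 1 was higher (Kdr) and 1 lower (Erg). Pecam1, Cdh5, Tie1 and Cldn5 were under the mean of 10, with Cldn5 at 0 in every library, and the summed level of the list was from 1182 to 1236 normalized counts in the KO-labelled libraries and from 960.2 to 977 in the controls. Of 4 leukocyte markers tested, 1 was lower (Cd14), and Adgre1 and Tyrobp were at 0, next to the 0 to 11 reads of the leukocyte integrin α subunits. The sum of the leukocyte list was from 514 to 606 normalized counts in the KO-labelled libraries and from 657 to 680.2 in the controls. Of 2 muscle markers tested, 1 was higher (Des, with Myf5 at 0; sum from 1664 to 1677 normalized counts in the KO-labelled libraries and from 1219 to 1384 in the controls), of 2 mesothelial markers 1 was lower (Msln; sum from 6752 to 6777 normalized counts in the KO-labelled libraries and from 7365 to 10238 in the controls), and of 4 Schwann cell and neural crest markers limma, edgeR and DESeq2 with the block called 0 (1 at an unadjusted p under 0.05 with limma, sum from 294 to 322 normalized counts in the KO-labelled libraries and from 352 to 384 in the controls). Among the endothelial, leukocyte, muscle and mesothelial markers, DESeq2 with the block called Kdr higher and Cd14 lower and called 0 muscle and 0 mesothelial markers.

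**Figure D5:**
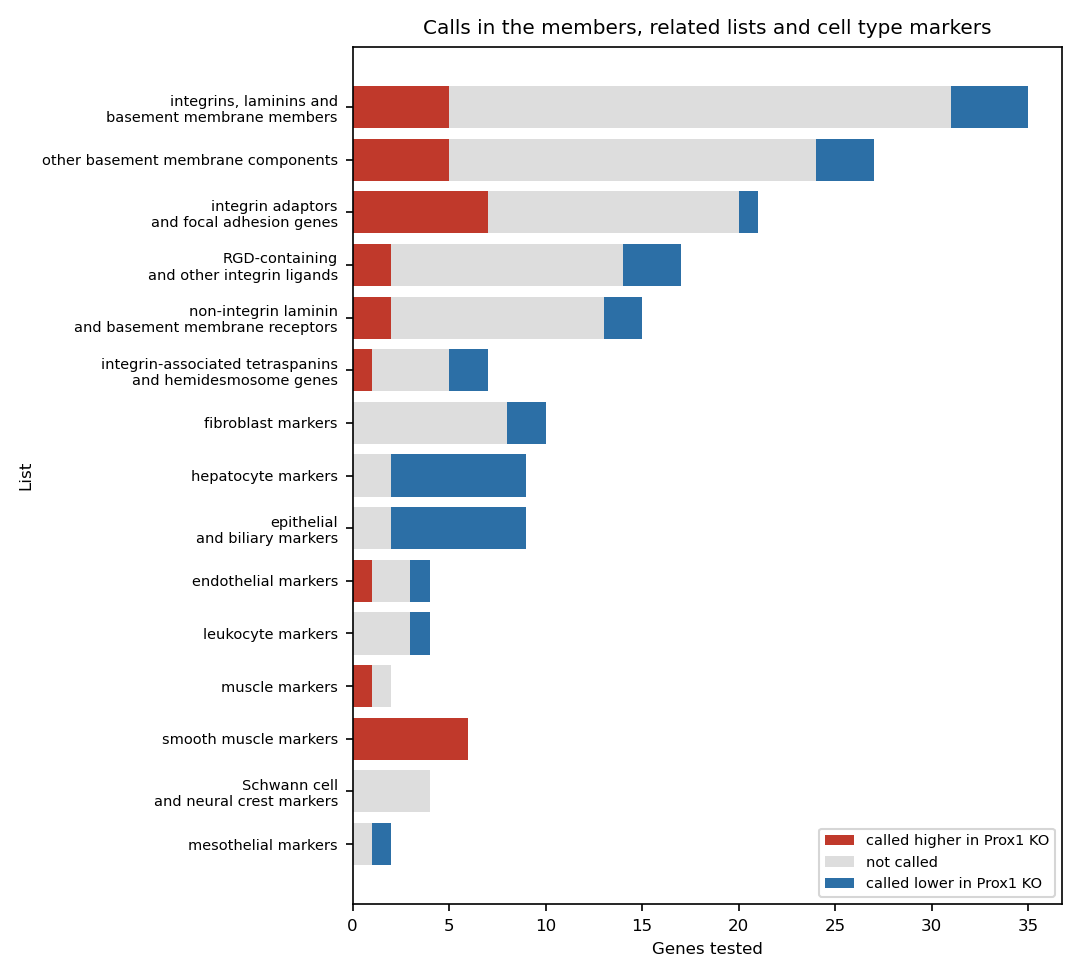
Number of genes tested (horizontal axis) in the integrin, laminin and basement membrane genes, in the 5 related lists and in 9 lists of cell type markers, divided into genes called higher in Prox1 KO libraries (red), not called (gray) and called lower (blue). The members hold calls in both directions (5 and 4 of 35), the focal adhesion list mostly higher calls (7 and 1 of 21) and the epithelial list lower calls only (7 of 9).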

How the data were processed

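RNA of 4 MEF cultures was sequenced (dUTP libraries, paired reads of 100 bases) and mapped by the authors to mm10 with STAR. The deposited table holds a signal per gene, counts of reads scaled by DESeq2 size factors ("normalized counts"). The counting tool, annotation and strand setting are not given in the sources used here. A second deposited table, with the authors' own fold changes and p-values, was not used. The values above 0 were whole multiples of 1 read's worth (100% within 0.01), so reads were recovered for the count tests. Counting error does not cover amplification, as there are no molecular identifiers.

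Groups and replicate numbers came from the labels. For 15809 genes averaging 10 or more, limma 3.58.1 (R 4.3.3) was run on log2(normalized counts + 1) with an intensity trend, the replicate number as a block and Benjamini-Hochberg adjustment over all genes (threshold 0.05). Fold changes are on that scale, which understates low genes. The labels do not state separate cultures, so p-values speak for these libraries only. The limma p-values use the moderated SE, which borrows from the variance of all genes tested. They therefore do not measure the spread of a gene's own 2 pairs. For bulk MEF data, the study's methods name the cell line of origin as a covariate. That a replicate number stands for a line is assumed here, as neither the labels nor the methods tie them. Same-numbered libraries deviated together (correlation 0.402 over genes, 2 pairs), and Xist, at 14495 and 13944 normalized counts in replicate 1, was at 4.89 and 1.06 in replicate 2. Same-group libraries differed in 34.3% (Prox1 KO) and 35.4% (control) of genes at an unadjusted p under 0.05 (chi-square test on reads). Counting error alone would give a far smaller share, so they were not duplicates.

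Alternatives were no block, pseudocounts of 0.1 and 10, no filter and a mean of at least 100, TMM and quantile scaling, edgeR 4.0.16 (quasi-likelihood) and DESeq2 1.42.0 on reads, and each replicate left out. The code was tested on simulated data. Every called member is named with its values, uncalled members with a mean of at least 1000 by values and the rest by their difference, up to 4 called genes per related list by size, and Prox1. Members and lists were chosen with earlier results of these data known, and genes of marker lists were named after their values were seen. Exonic lengths and coordinates come from GENCODE vM21 on GRCm38 (55137 of 55397 identifiers matched), promoter windows from RefSeq. Values of 1 member are not reported here, and it is left out of the plots of single genes.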

Additional observations from a re-analysis of the deposited data

How the results depend on the processing

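How many members were called depended on the pairing. With no replicate block, limma called 0 of the 35 members and 0 of 15809 genes, against 9 and 1798 with it. DESeq2 called 4 members and 475 genes with the block and 2 members (Itga5 and Lamc3) and 159 genes without it, and edgeR with the block called 9 members, with Hspg2 in place of Itga4. Leaving out 1 library at a time was fitted without the block and with the lone library assumed to vary like the others. Without the block limma called 0 members on all 4 libraries already, so those fits cannot show the part of any single library. Leaving out a whole replicate left 1 pair and no test. Why fewer genes were called without the block was not tested. Itga4 passed in 4 of 11 settings and was lost with a pseudocount of 10, TMM and quantile scaling and edgeR. Itgb6 was lost under quantile normalization too, and Itga3 and Hspg2 passed with no filter on low values. Among uncalled members, the sign turned for Itga10 with DESeq2 and no block (-0.014) and, under quantile normalization, for Lamb2 (-0.049) and Lamb3 (0.014); the cause was not tested. The 9 called members kept their direction in the 11 settings with a test. Depth limits Itgb2 and Itgb7, with means under 100.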
